A study of Mus musculus and Homo sapiens with 28 samples.

Results

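The 13 untreated Renca tumours of the series were compared by genotype label. They are 6 libraries labelled SETD2 KD and 7 labelled WT, chosen by their column names out of the 24 Renca libraries and 28 libraries in all. Renca is a mouse renal carcinoma line. Cells were injected under the skin of mice in Matrigel, a basement membrane gel, and the mice of both groups received no drug once tumours reached about 100 mm3. The other 11 Renca libraries come from mice given VE822, an inhibitor of the checkpoint kinase ATR, by oral gavage at 60 mg/kg on 5 days per week (6 labelled WT, 5 labelled SETD2 KD). KD stands for knockdown. The labels used here say neither how it was made nor whether it is 1 clone, and give no age, strain or sex of the mice. The comparison asks what the knockdown label goes with, before any drug. Numbers in the titles of the untreated libraries fall in a separate run for each label, whereas those of the treated libraries interleave. What the numbers stand for is not stated. Anything that went with these runs cannot be told apart from the label in the untreated tumours.

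SETD2 is the methyltransferase that places the third methyl group on lysine 36 of histone H3 along transcribed genes. The mark is read by proteins that act in splicing, DNA methylation, mismatch repair and recombination, and its loss is common in clear cell renal carcinoma. Cells without it depend more on the ATR and CHK1 kinases, which hold back the cell cycle when DNA replication is slowed. A subcutaneous tumour also holds blood, vessels, fibroblasts, immune cells and skin-associated fat and muscle of the host, so its RNA is a mixture of these sources.

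Setd2 itself was at one level in both labels of the untreated tumours, so the libraries are called by their labels throughout. Setd2 (ENSMUSG00000044791, GRCm38 chr9:110532597-110618633, plus strand) is given as rlog, a regularised log2 value in which 1 unit is a doubling and the noise of low genes is damped. It was 10.74, 10.79, 10.77, 10.78, 10.89, 10.91 and 10.90 in the libraries labelled WT and 10.80, 10.88, 10.70, 10.86, 10.85 and 10.77 in those labelled SETD2 KD. The labels overlapped fully, and the difference was -0.02 (95% confidence interval -0.21 to 0.18). The libraries labelled WT held the 3 highest values, and these were the 3 low-Xist libraries described further on. Without those 3 libraries the difference was 0.04. Under VE822 Setd2 ran from 9.58 to 10.28 with the WT label and from 9.42 to 9.96 with the SETD2 KD label. These ranges overlapped, leaned lower with the SETD2 KD label and lay below all untreated values.

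The samples carry the tissue label kidney although they are tumours grown under the skin, and kidney markers were only partly measured. Of a list of 16 genes of kidney segments, 9 lay below a mean rlog of 3, the lowest level tested, among them Umod of the thick ascending limb and Nphs1 of podocytes. The other 7 had a median difference of -0.11 (3 higher). Of 20 genes of renal epithelium and carcinoma, 18 were measured. Pax8, the renal lineage factor, had a mean of 11.4 in both labels, and the epithelial keratin gene Krt8 had 15.5 in both. Median rlog per library ran from 9.16 to 9.19 and 12906 to 13035 genes lay above 5, so the libraries were alike in range, although the number of reads behind rlog values is unknown. No 2 libraries held identical values, and correlations between them ran from 0.9934 to 0.9988 across genes. Before the results, 5 libraries are named because they stood apart: WT replicate 1 by whole chromosomes and fat genes, WT replicates 5, 6 and 7 by low Xist, and SETD2 KD VE822 replicate 4, outside the comparison, by whole chromosomes.

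No gene passed the test between the labels when the spread was estimated over all 24 Renca libraries. With limma, 0 of 15916 genes (0%) had a Benjamini-Hochberg adjusted p below 0.05, and 512 (3.22%) had an unadjusted p below 0.05. With only the 13 untreated libraries in the fit 3 genes passed and 1481 (9.31%) had an unadjusted p below 0.05. The count of 0 also rested on 1 library outside the comparison. When the fit left out the library SETD2 KD VE822 4, which stood apart from its own group by whole chromosomes, 3 genes passed (0.0188%) and 806 had an unadjusted p below 0.05. These were Syngr1 (adjusted p 0.00206), Eya4 (0.0485) and Cd22 (0.0485), all higher with the SETD2 KD label and with the same differences as in the full fit. Without WT replicate 1 no gene passed either.

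The differences were small for nearly every gene. The median difference was -0.0002 and the median absolute difference 0.05 on the log2 scale. From the 1st to the 99th percentile, differences ran from -0.32 to 0.22, and 52 genes differed by 0.5 or more and 9 by 1 or more in either direction. The 95% confidence interval lay within 0.5 of zero for 14714 genes (92.4%) and within 1 for 15793 (99.2%). In simulated data of this comparison with 15916 genes, 83% of 100 genes changed by 0.5 and 98% of 100 genes changed by 1 were recovered, with 10 false calls. Each simulated gene was drawn independently, with the same spread in every group and without outlying tumours. These shares therefore check the code and do not measure power in the real libraries, where none of the 9 genes passed.

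Of the 10 genes with the smallest p in each direction, Syngr1, Eya4 and Cd22 led those higher with the SETD2 KD label. Syngr1 (GRCm38 chr15:80091334-80119501, plus strand) encodes synaptogyrin 1, a membrane protein of synaptic vesicles. Its rlog ran from 6.62 to 7.15 (median 6.97) in libraries labelled WT and from 7.35 to 8.07 (median 7.70) in those labelled SETD2 KD. The labels did not overlap, and the difference was 0.78 ± 0.15 (SE; limma adjusted p 0.140). Eya4 (chr10:23102963-23350786, minus strand), a transcriptional coactivator and phosphatase of the eyes absent family, was low in all libraries, at 4.61 to 4.86 with the WT label and 4.98 to 5.38 with the SETD2 KD label. Its difference was 0.42 ± 0.07 (SE; limma adjusted p 0.127), again without overlap.

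Cd22 (chr7:30865402-30880342, minus strand), an inhibitory receptor of B cells that binds sialic acid, was at 6.34 to 6.78 (median 6.52) with the WT label and reached 7.54 (median 7.12) with the SETD2 KD label, without overlap. The difference was 0.64 ± 0.12 (SE; limma adjusted p 0.153). Of the 6 measured B cell genes, Cd22 included, 4 were higher and 2 lower, with a median of 0.077. Of 12 B cell genes in the list the other 6 lay below the lowest level tested, including the defining gene Ms4a1, which encodes CD20. Pax5, the B cell transcription factor and a relative of the renal factors Pax2 and Pax8, was well measured (9.33 to 9.70 over the 13 libraries) with a difference of 0.07. Cd79a, a chain of the B cell receptor complex, had means of 9.89 and 9.97. The cells that carry Cd22 here were not tested.

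Fn1 and Mucl1 were among those lower with the SETD2 KD label. Fn1 (chr1:71585520-71653200, minus strand) encodes fibronectin, a matrix protein made by fibroblasts and many tumour cells. It ran from 13.28 to 13.86 (median 13.48) with the WT label and from 12.49 to 13.25 (median 13.11) with the SETD2 KD label. The labels were separated by 0.03, the distance from the lowest WT to the highest SETD2 KD library, and the difference was -0.55 ± 0.14 (SE; limma adjusted p 1.00). Mucl1 (chr15:103751919-103755469, minus strand), a small secreted mucin-like protein, was at 6.80, 7.28, 6.72, 7.74, 8.43, 8.45 and 8.17 in WT replicates 1 to 7 and at 5.77, 6.81, 6.48, 6.06, 6.61 and 6.33 in SETD2 KD replicates 1 to 6. The lowest WT libraries overlapped the highest SETD2 KD library, and the difference was -1.31 ± 0.32 (SE; adjusted p 1.00).

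The other leading genes had smaller differences or lower levels. Il17re, a receptor chain for interleukin 17C, differed by -0.35 (limma adjusted p 0.208) and lay between 3.24 and 3.89, near the lowest level tested. Crym, which encodes the thyroid hormone binding protein mu-crystallin, differed by -0.44, and Sorbs2, an adaptor of the actin cytoskeleton, by -0.26 at a level above 10. Asgr2, a subunit of the asialoglycoprotein receptor, differed by 0.73, Chrnd, a subunit of the muscle acetylcholine receptor, by 0.31 and the scaffold gene Pdzd3 by 0.30. Zmynd19, a MYND-type zinc finger gene, differed by 0.15 without overlap of the labels. Tmem183a differed by 0.14, Fam78b by -0.44, Gm17606 by -0.29, Gm12963 by -0.26 and BE692007 by -0.24. The alpha-globin gene Hba-a1 differed by -1.26, and 2 rows with no gene name in the annotation, ENSMUSG00000060393 and ENSMUSG00000043858, by 0.24 and 0.16. Each gene of this paragraph other than Il17re had a limma adjusted p of 1.00.

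**Figure D1:**
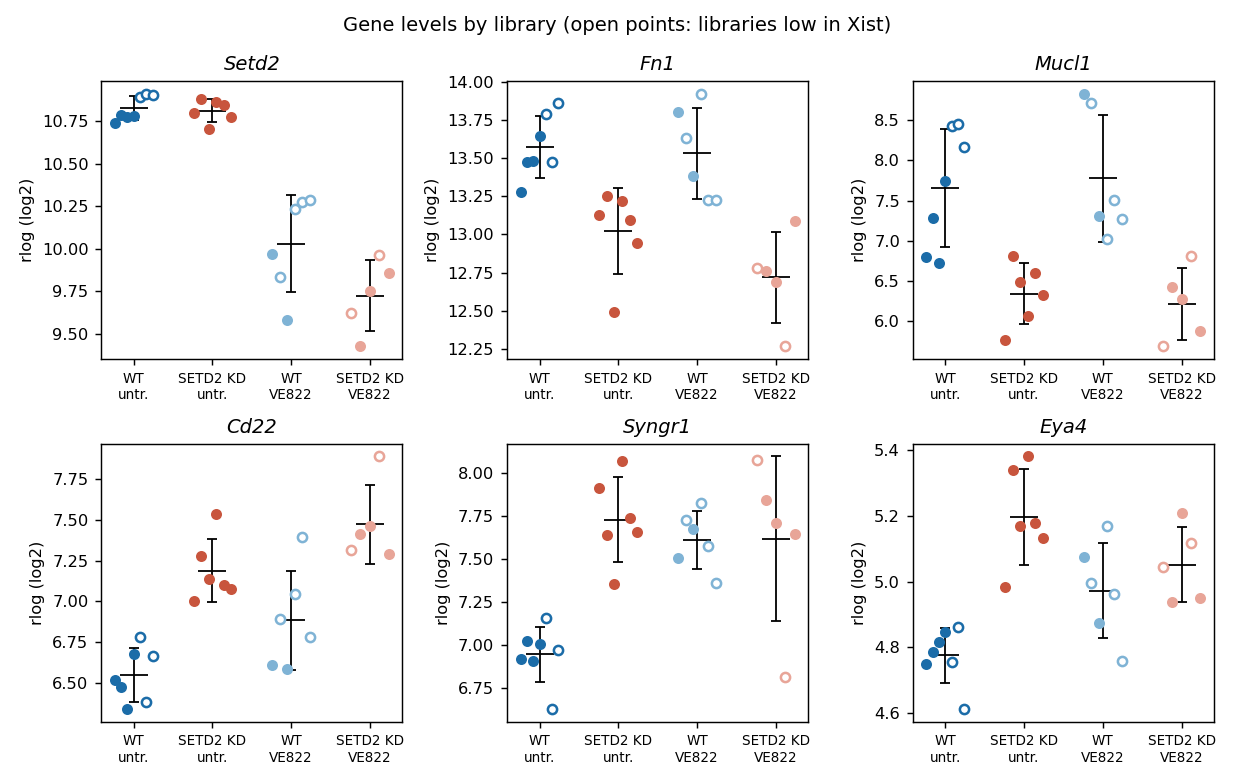
Level (rlog, log2) of Setd2, Fn1, Mucl1, Cd22, Syngr1 and Eya4 in each of the 24 Renca libraries, with the mean and SD of each group; open points are libraries low in Xist. Setd2 overlaps fully between the untreated labels, Cd22 and Fn1 are separated by label in the untreated groups and lean the same way under VE822, and Syngr1 and Eya4 are separated in the untreated groups and overlap under VE822.

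Over all genes tested, 74 (0.465%) had labels that did not overlap, 43 higher (0.27%) and 31 lower (0.195%) with the SETD2 KD label. The higher ones differed by 0.06 to 0.78 (median 0.14) and the lower ones by -1.35 to -0.10 (median -0.22). The largest of these differences belonged to Retnla, which encodes a secreted protein of alternatively activated macrophages. Retnla was at 3.86 to 4.99 in 6 libraries labelled WT and at 7.89 in WT replicate 6, against 3.53 to 3.71 with the SETD2 KD label. Adcy3, an adenylyl cyclase, was also separated, at 7.28 to 7.72 and 7.92 to 8.09, with a difference of 0.45.

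The 11 tumours given VE822 share no library with the untreated ones, so the same contrast was read there for the 20 leading genes. The difference had the same direction for 16 of 20 and was smaller for 18 of 20. These genes were chosen by the smallest untreated p, which favours large untreated differences. Smaller values in other libraries therefore cannot show that the label difference weakens under VE822. Cd22 differed by 0.59 (limma adjusted p 0.0996), Fn1 by -0.82 (0.0535) and Mucl1 by -1.56 (0.0970), each in the same direction as untreated. Fn1 ran from 13.23 to 13.92 with the WT label and from 12.26 to 13.09 with the SETD2 KD label under VE822, and Mucl1 from 7.02 to 8.83 and from 5.69 to 6.82, both without overlap, as were 97 genes (0.609%) under VE822. Cd22 overlapped in 1 WT library, at 7.39 against 7.29 to 7.89 with the SETD2 KD label. Syngr1 and Eya4 differed by 0.01 and 0.08 there, against 0.78 and 0.42 untreated.

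The difference between the treated and untreated contrasts was itself tested and passed for 0 of 15916 genes (0%), with 1452 genes (9.12%) below an unadjusted p of 0.05. For Syngr1 it was -0.78 (limma adjusted p 0.424) and for Sorbs2, which differed by 0.18 under VE822 against -0.26 untreated, 0.43 (0.424). Without the library SETD2 KD VE822 4, Cd22 differed by 0.49, Fn1 by -0.70, Mucl1 by -1.71 and Syngr1 by 0.21 under VE822, and 15 of 20 leading genes had the same direction. Across all genes the 2 sets of differences had a Pearson correlation of 0.17 and a Spearman correlation of -0.02, given as a description, and 46.7% of genes had the same sign.

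**Figure D2:**
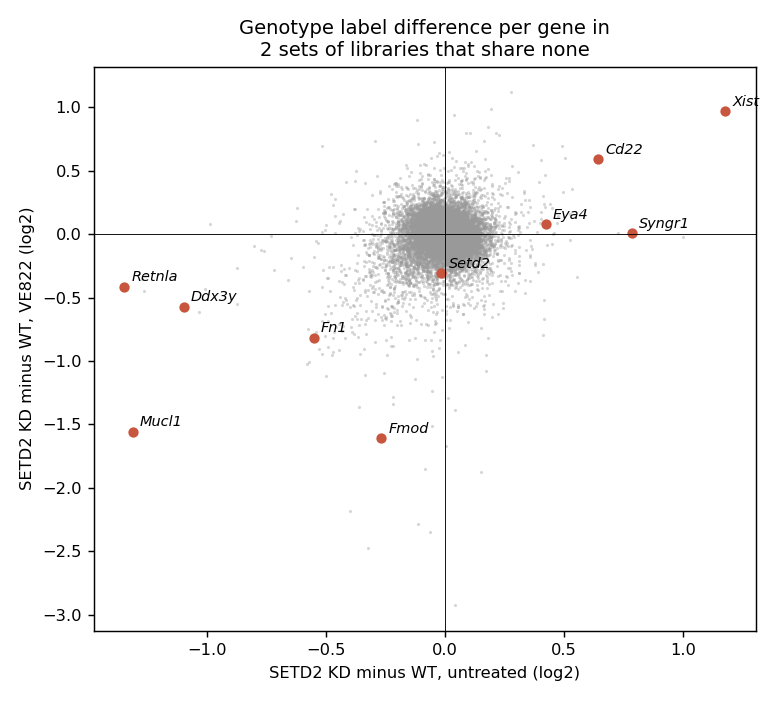
Difference between the genotype labels (SETD2 KD minus WT, log2) per gene for 15916 genes, untreated on the x axis and under VE822 on the y axis. Fn1, Mucl1 and Cd22 lie away from zero on both axes, whereas Syngr1 and Eya4 lie near zero on the y axis and Fmod near zero on the x axis.

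The mean of the label difference over treated and untreated tumours, a contrast chosen after the data were seen, passed for 5 genes (0.0314%), all of which had the same direction in both. Cd22 was higher by 0.62 (limma adjusted p 0.00569) and Mfsd12, a transporter of lysosomes and melanosomes, by 0.20 (0.00706). Fn1 differed by -0.68 (0.00569), Fmod, a collagen-binding proteoglycan of the matrix, by -0.94 (0.00706) and Mucl1 by -1.43 (0.0106). The calls of Fmod and Mfsd12 came mostly from the treated tumours, since their untreated differences were -0.27 and 0.09 and they were the 2 genes that passed under VE822 (0.0126%). With only the 11 treated libraries in the fit no gene passed under VE822, with 873 below an unadjusted p of 0.05, and the limma adjusted p was 0.100 for Fmod and 0.839 for Mfsd12, Cd22, Fn1 and Mucl1. Without the library SETD2 KD VE822 4, 3 genes passed under VE822 (0.0188%) and the count for the mean was 29 genes (0.182%), and Syngr1 was among them with a mean difference of 0.50 (0.00790). Mcm9, a helicase of DNA recombination repair chosen after its values were seen, was the 1 gene besides Fn1 whose labels did not overlap with or without VE822, higher by 0.13 untreated and by 0.16 under VE822.

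The libraries fell into 2 clear states by Xist, the RNA that coats the inactive X chromosome, and by genes of the Y chromosome, and this state went with the labels in part. Xist was at 5.88, 5.76 and 5.81 in WT replicates 5, 6 and 7 and at 8.36 to 9.57 in the other 4 WT and all 6 SETD2 KD libraries. The Y-linked helicase gene Ddx3y was at 6.35, 6.47 and 6.43 in those 3 libraries and at 3.84 to 3.94 in the other 10, and Eif2s3y at 5.95 to 6.44 against 3.75 to 3.82. Under VE822, 4 of 6 WT and 2 of 5 SETD2 KD libraries were low in Xist. The sex of the mice and of the injected cells is not given, and the part of this state in the label differences was not tested beyond the values that follow.

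Without the 3 low-Xist libraries no gene passed (0 of 15916), with 606 genes below an unadjusted p of 0.05. Within the 10 high-Xist libraries the difference was 0.69 for Cd22, 0.76 for Syngr1, 0.40 for Eya4 and -0.45 for Fn1, near the values over all 13. For Mucl1, whose 3 highest untreated libraries were the low-Xist ones, it was -0.79 against -1.31. With the state of all 24 libraries as a covariate, Cd22 alone passed in the untreated contrast, with a difference of 0.74 (limma adjusted p 0.0442). With that covariate the mean over both treatments stayed past the threshold for Cd22, Fn1, Fmod and Mfsd12, and Mucl1 did not pass (adjusted p 0.102). With the 3 low-Xist untreated libraries left out instead, 2 genes passed for that mean, Cd22 and Fmod (limma adjusted p 0.0251 each), and Fn1 and Mfsd12 (0.0573 each) and Mucl1 (0.125) did not.

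Genes around H3K36 methylation had no difference beyond 0.11 in either direction. All 31 members of the list were measured, 17 higher and 14 lower with the SETD2 KD label, with a median difference of 0.0025. None of the 31 had an unadjusted p below 0.05 and none had separated labels, against 3.22% and 0.465% of all genes. Among the enzymes, the related methyltransferase genes Setd5 and Nsd3 differed by 0.11 and -0.08 and the H3K36 demethylase Kdm2a by -0.08. Among partners, Hnrnpl, a splicing factor that binds SETD2, and Iws1, which brings SETD2 to RNA polymerase II, differed by 0.08 each. Gene length, which bears on a mark of transcribed gene bodies, showed no shift that passed. The median of genes spanning over 100 kb differed by -0.02 (1770 genes; exact permutation test, adjusted p 0.549 over 4 length classes), and 0 of 6 gene biotypes passed (smallest adjusted p 0.933).

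DNA replication genes were slightly higher with the SETD2 KD label almost throughout the list. Of 32 genes, all measured, 31 were higher and 1 lower, with a median difference of 0.064, where 49.9% of all genes were higher and the median was -0.0002. None passed over all genes, and 7 of 32 had an unadjusted p below 0.05, against 3.22% of all genes. Pcna, the sliding clamp of the replication fork, was at 13.53 to 13.60 in libraries labelled WT and 13.57 to 13.72 in those labelled SETD2 KD, so that the ranges overlapped at 13.57 to 13.60, with a difference of 0.10. The licensing factor Cdt1 differed by 0.11, and Mcm6 and Mcm3, subunits of the replicative helicase, by 0.10 and 0.07. The list mean was 10.76 to 10.86 and 10.77 to 10.92 in the 2 labels. Under VE822, 15 of the 32 genes were higher and 17 lower with the SETD2 KD label (median -0.011), where 49.2% of all genes were higher.

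Some of these genes carry a promoter sequence that is described here apart from the label difference. How often it occurs does not depend on the labels, and differences of genes with and without it were not compared. Promoters of many replication genes carry sites for E2F factors, which switch on S phase genes. The letters TTTCCCGC, TTTCGCGC, TTTGCCGC and TTTGGCGC were searched on both strands, as 4 words that can overlap, in the 250 bases before the start of each gene in the RefSeq table (build GRCm38.p6). A match was found for 8 of 25 replication genes in the table (32%), 411 of 11173 tested genes (3.68%) and 611 of 32851 promoters in all (1.86%). It was found for 2 of 13 homologous recombination genes (15.4%), 1 of 18 mitosis genes (5.56%), 0 of 11 fibroblast genes and 0 of 20 ribosomal protein genes. A match describes the letters and is not a bound site. The promoters of 3 members are shown 5′ to 3′ on the strand of the gene, with the matches in capitals, because they place the motif at different distances from the start: Mcm6 (chr1:128359706-128359955, minus strand), Mcm7 (chr5:138171884-138172133, minus strand) and Orc1 (chr4:108579204-108579453, plus strand).
Mcm6: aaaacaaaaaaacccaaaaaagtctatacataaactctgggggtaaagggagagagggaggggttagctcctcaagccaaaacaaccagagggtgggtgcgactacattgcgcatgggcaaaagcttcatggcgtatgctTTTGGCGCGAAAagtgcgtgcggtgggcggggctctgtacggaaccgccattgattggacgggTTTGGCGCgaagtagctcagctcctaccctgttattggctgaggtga
Mcm7: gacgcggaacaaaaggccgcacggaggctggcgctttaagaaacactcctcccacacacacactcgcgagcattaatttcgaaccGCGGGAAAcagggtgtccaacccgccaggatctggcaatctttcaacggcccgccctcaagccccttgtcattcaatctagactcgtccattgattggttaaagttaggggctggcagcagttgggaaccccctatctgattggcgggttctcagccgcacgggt
Orc1: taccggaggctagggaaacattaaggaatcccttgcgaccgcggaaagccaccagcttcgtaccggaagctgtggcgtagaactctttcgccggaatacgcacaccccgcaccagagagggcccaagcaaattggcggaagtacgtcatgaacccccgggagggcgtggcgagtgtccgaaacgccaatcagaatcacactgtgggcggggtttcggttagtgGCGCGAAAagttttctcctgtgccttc
Mcm6 holds 3 matches, 2 of which overlap in 1 run of capitals, and each of the others holds 1. Their differences between labels were 0.10 for Mcm6, 0.08 for the helicase subunit gene Mcm7 and 0.03 for Orc1, a subunit of the origin recognition complex, each with a limma adjusted p of 1.00.

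Other lists of the tumour cell programme had small medians. Of 18 measured ATR-CHK1 checkpoint genes 13 were higher and 5 lower (median 0.042), with Timeless and Tipin, which form the fork protection complex, at 0.15 and 0.13. Of 21 cholesterol synthesis genes 18 were lower and 3 higher (median -0.12), where 50.1% of all genes were lower. Mvd differed by -0.25 and Hmgcs1 by -0.17, while under VE822 the same list had 16 higher and 5 lower (median 0.10). Of 18 AP-1 and immediate early genes 15 were lower (median -0.13), with Egr1 at -0.48 and Jun at -0.20. Egr1 was highest in WT replicates 1 (11.06) and 4 (10.61) and at 9.58 to 10.20 in the other 11 libraries. Of 30 ribosomal protein genes 26 were lower, with a median of only -0.036. Among 19 measured p53 targets 14 were higher (median 0.013), with the kinase gene Plk2 at -0.32, the antiproliferative gene Btg2 at -0.18 and the cell death gene Bax at 0.09. None of these genes passed over all genes. The remaining programmes had medians of 0.028 for homologous recombination (14 of 21 higher), 0.024 for mitosis (13 of 22), 0.043 for histone genes (11 of 16), 0.073 for mitochondrial transcripts (11 of 13), 0.021 for oxidative phosphorylation (10 of 18), -0.020 for hypoxia (6 of 19) and -0.074 for the unfolded protein response (4 of 17). Some of these leanings rested on WT replicates 1 and 3 and SETD2 KD replicate 6. Without them ribosomal protein genes had 17 lower and 13 higher (median -0.005). ATR-CHK1 genes then had 10 higher and 8 lower (0.004), and mitosis genes 5 higher and 17 lower (-0.026). Cholesterol synthesis kept 17 of 21 lower and the AP-1 list 16 of 18.

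Immune lists had small medians of both signs. Of 32 type I interferon genes 23 were higher and 9 lower (median 0.046), with the antiviral GTPase gene Mx1 at 0.40. All but 1 of 16 MHC class I genes were higher, with a median of 0.049, where 49.9% of all genes were higher. Within the 10 high-Xist libraries 11 were higher and 5 lower (median 0.032). Without WT replicates 1 and 3 and SETD2 KD replicate 6, 15 were higher and 1 lower (median 0.077). Of 19 measured interferon-gamma and chemokine genes 15 were higher (median 0.095), but within the 10 high-Xist libraries 4 were higher and 15 lower (median -0.077). WT replicate 1, which is among those 10, had a list mean of 8.94, against 7.68 to 7.95 in the other WT libraries. Without WT replicates 1 and 3 and SETD2 KD replicate 6, 17 of the 19 were higher and 2 lower (median 0.22). The cGAS-STING list, the pathway that senses DNA in the cytosol, had 5 higher and 8 lower of 13 measured (median -0.019), with Cgas at -0.15 and Tmem173, the STING gene, at 0.14. Macrophage genes were split, 8 higher and 9 lower. Cd68, a lysosomal protein of macrophages, had a median of 13.88 with the WT label and 14.08 with the SETD2 KD label, overlapping in WT replicates 5 and 6, with a difference of 0.23, and Itgam, the CD11b integrin, differed by -0.22. Ccr7, the homing receptor of migrating dendritic cells, differed by 0.43 and Itgax, CD11c, by 0.28. T cell genes had a median of 0.023 (11 of 17 higher), cytotoxic and NK cell genes 0.031 (7 of 9), dendritic cell genes -0.0023 (5 of 11), neutrophil genes -0.044 (3 of 9), MHC class II genes -0.031 (4 of 10) and mast cell genes -0.16 (0 of 5). In these bulk samples fewer cells of a type and less RNA per cell cannot be told apart.

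Host tissue differed mostly by single tumours. The adipocyte list was at 7.77 and 7.63 in WT replicates 1 and 3 and at 6.77 in SETD2 KD replicate 6, against 5.48 to 5.71 in the other 10 libraries. Cfd, the adipokine adipsin, was at 10.3, 10.2 and 8.42 in those 3 libraries and at 4.95 to 5.34 in the others. All 10 measured adipocyte genes were lower with the SETD2 KD label (median -0.49), and without those 3 libraries the median was -0.037. The endothelial list had 12 of 14 lower (median -0.14), and a median of 0.003 without the same 3 libraries. Muscle genes were high in WT replicate 4, with a list mean of 6.35 against 4.75 to 5.60 elsewhere, and the list as a whole had a median of -0.035 (6 of 17 higher). Both measured keratinocyte genes were higher (median 0.071), 9 others lying below the lowest level tested. The B cell chemokine Cxcl13 was at 10.4 in WT replicate 4 and at 4.04 to 5.56 in the other 12.

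Red blood cell and fibroblast genes differed more widely between the labels. Of 8 measured red blood cell genes 6 were lower with the SETD2 KD label, with a median difference of -0.78. Hbb-bs, a beta-globin gene, was at 7.94 to 10.6 (median 9.63) with the WT label and at up to 8.45 (median 8.11) with the SETD2 KD label, a difference of -1.27. WT replicates 2 and 3 lay within the SETD2 KD range and the other 5 above it. Globin genes are near-identical copies, so reads can be split between them. Of 18 fibroblast genes 17 were lower (median -0.27), as were 16 of 18 under VE822 (median -0.56), where the contrast uses other libraries. Only 1 of the 18 had an unadjusted limma p below 0.05 untreated, against 3.22% of all genes. Without WT replicates 1 and 3 and SETD2 KD replicate 6, 16 were lower and 2 higher (median -0.18). Pdgfra, a receptor of fibroblasts, differed by -0.47, the collagen gene Col6a1 by -0.31 and the pericyte receptor Pdgfrb by -0.17, and Fn1 was the 1 member with separated labels. The list mean was 9.94 to 11.2 with the WT label and 9.98 to 10.9 with the SETD2 KD label, with WT replicate 6 (9.94) and SETD2 KD replicate 3 (9.98) the lowest. Of the epithelial genes, Krt7 differed by -0.41 and the list as a whole had 11 of 18 higher.

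**Figure D3:**
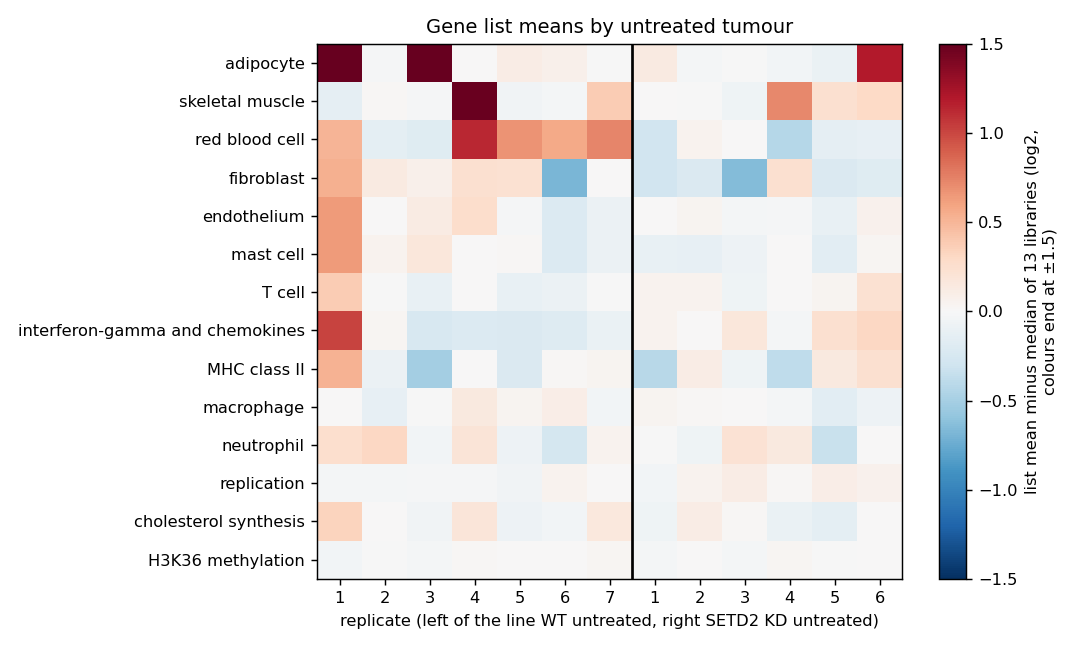
Mean rlog of 14 gene lists in each of the 13 untreated libraries, as the difference from the median of the 13 (log2; colours end at 1.5). Strong colours of single tumours include adipocyte genes in WT replicates 1 and 3 and SETD2 KD replicate 6. Others are muscle genes in WT replicate 4 and interferon-gamma and chemokine genes in WT replicate 1. Fibroblast genes are low in WT replicate 6 and SETD2 KD replicate 3. Red blood cell genes are high in WT replicates 1, 4, 5, 6 and 7 (7.87 to 8.48), against at most 7.41 with the SETD2 KD label.

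With both labels pooled, tumours of different labels were as alike as tumours of one label. Pairs labelled SETD2 KD were nearer than pairs across labels, and pairs labelled WT were farther apart. The distance between 2 libraries was taken as the root mean square difference per gene (log2). Its median was 0.238 over the 21 pairs labelled WT, 0.191 over the 15 pairs labelled SETD2 KD and 0.215 over the 42 pairs across labels. The ratio of distances across to within labels had a median of 1.00 over the 13 libraries. The nearest library had the same label for 2 of 7 WT and 4 of 6 SETD2 KD libraries. The 2 most alike tumours were SETD2 KD replicates 2 and 5 (0.146), and WT replicate 7 lay almost as near to SETD2 KD replicate 5 (0.159). WT replicate 1 was the farthest from the rest, at 0.258 or more from every other library. Without it the WT pairs had a median of 0.216 and the pairs across labels 0.211. Distances share libraries and are given without a test.

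WT replicate 1 also stood apart by whole chromosomes. Among genes with a mean rlog of at least 8, 83.2% of 471 genes on chromosome 6 lay below the median of the other 12 libraries in this tumour, with a median difference of -0.12. On chromosome 16 the share was 78.9% (median -0.11), on chromosome 18 it was 71.2% (-0.099) and on the X chromosome 68.2% (-0.090). On chromosome 8, 80.1% of 553 genes lay above (median 0.097), while on chromosomes 1 and 9 the genes lay evenly on both sides (48.1% and 49.3% below). Other untreated tumours also leaned by chromosome, with smaller medians. SETD2 KD replicate 5 had 70.6% below on chromosome 10 (-0.038). SETD2 KD replicate 2 had 68.6% above on chromosome 6 (0.037) and 67.8% below on chromosome 8 (-0.041). The library SETD2 KD VE822 4 had medians of -0.16 on chromosome 6 and -0.17 on chromosome 16 against the untreated libraries, where the other 4 of its group lay at 0.077 to 0.15 and -0.096 to 0.036. On chromosome 10 it lay at 0.026, and those 4 lay at -0.25 to -0.21 and the 6 WT VE822 libraries at -0.28 to -0.25. Treated and untreated tumours thus differed by whole chromosomes, chromosome 10 most, in 10 of the 11 treated libraries, and the part of this in the contrasts that use treated tumours was not tested. On chromosomes 6, 14, 16, 18 and X, SETD2 KD VE822 replicate 4 and WT replicate 1 were both low. DNA copy number was not measured and its part was not tested.

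Between the labels, chromosome medians did not differ past the threshold for any of the 19 autosomes and the X chromosome (exact two-sided permutation tests, adjusted over 20). The nearest was chromosome 15, where the median over 420 genes was higher by 0.026 with the SETD2 KD label (exact p 0.00641, adjusted p 0.128). Syngr1 and Mucl1 both lie on chromosome 15, with differences of opposite sign. Without WT replicate 7 the chromosome 15 difference passed (adjusted p 0.0433). Without WT replicate 1 the smallest adjusted p of any chromosome was 0.216. WT replicate 1 had the lowest chromosome 15 median, at -0.044 against -0.015 to 0.029 in the other libraries. The chromosome 6 median differed by 0.033 (adjusted p 0.247) and that of chromosome 8 by -0.025 (0.358), and both held WT replicate 1 at 1 end.

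**Figure D4:**
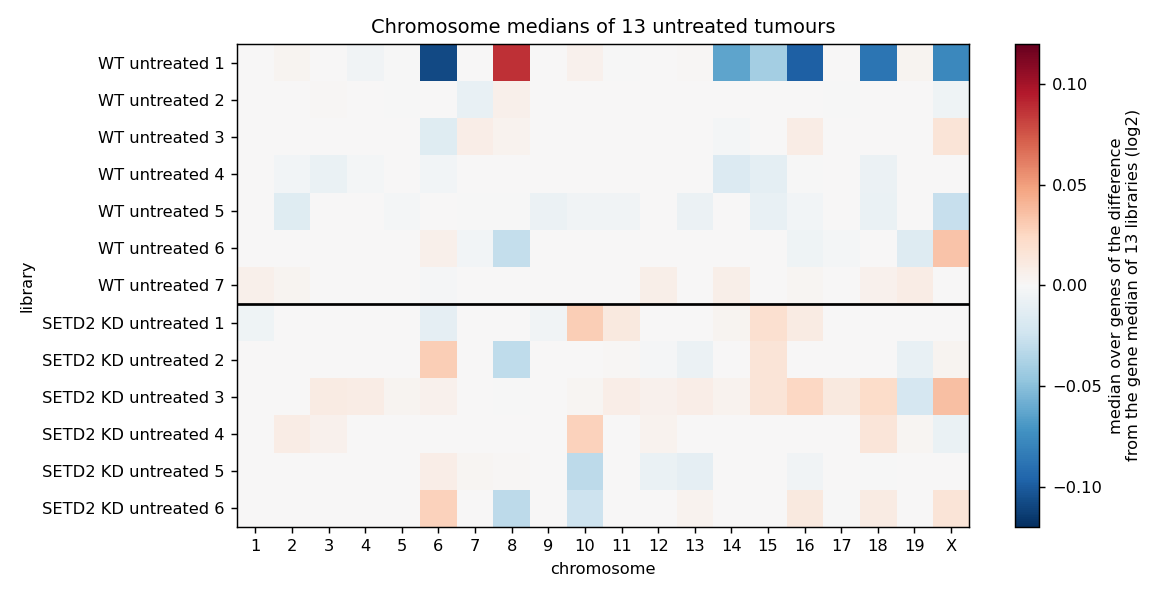
Median over the genes of each chromosome of the difference from the gene median of the 13 untreated libraries (log2), for genes with a mean rlog of at least 8. WT replicate 1 is low on chromosomes 6, 14, 15, 16, 18 and X and high on chromosome 8, and the other 12 libraries lie within 0.04 of zero.

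Principal components of the 13 libraries, made without the labels, separated them on a minor axis. Component 1 held 25.5% of the variance and ran from WT replicate 1 (score -29.1) to the rest, with the adipocyte genes Cfd, Car3 and Cyp2e1 at its low end. Component 2 (18.2%) had the matrix genes Mmp3, Tnn and Col11a1 at one end. Neither differed by label (exact permutation tests, adjusted p 0.367 and 0.677 over 5 components). Component 4 (9.11%) did, with scores of -11.5 to 1.48 for the WT label and 1.73 to 10.5 for the SETD2 KD label (exact p 0.00233, adjusted p 0.0117). Its largest loadings towards SETD2 KD were Xist, Gm12033 and Ccl17, a chemokine of dendritic cells and macrophages, with Syngr1 and Cd22 among the first 15. Towards WT they were Retnla, the Y-linked genes Ddx3y and Eif2s3y, and Mucl1, with globin genes and Fn1 among the first 15.

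This separation depended on single libraries and on the genes used. It was lost with the 500 most variable genes (smallest adjusted p 0.0962) and without WT replicate 3 (0.206), WT replicate 6 (0.180), SETD2 KD replicate 2 (0.107), replicate 3 (0.0505) or replicate 4 (0.0884). With the X and Y chromosomes left out, 1 component differed (exact permutation test, adjusted p 0.0204), with the 3 low-Xist libraries still included. Without those 3 libraries the first component differed (exact permutation test, adjusted p 0.0476). Components were made anew each time, so these results do not show that component 4 itself was kept.

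**Figure D5:**
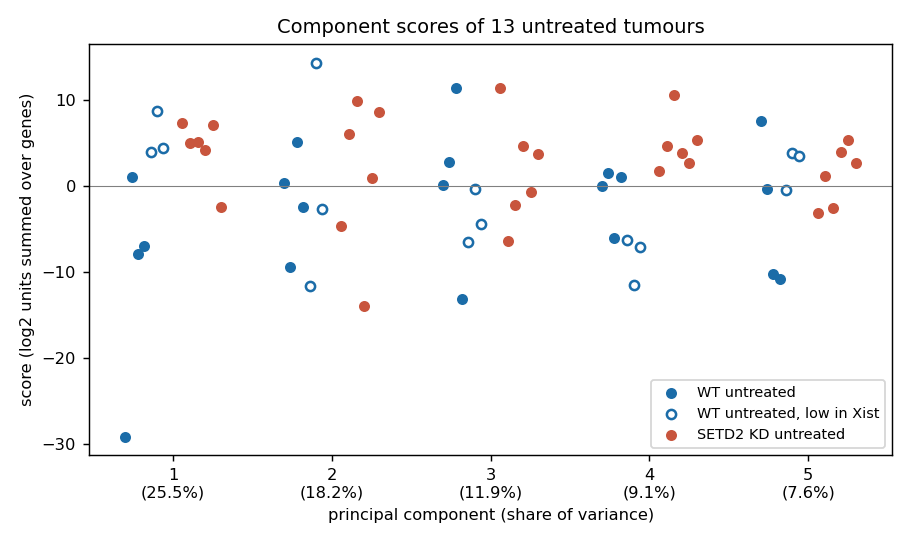
Scores of the 13 untreated libraries on the first 5 principal components, by label; open points are the 3 WT libraries low in Xist. On component 4 all SETD2 KD libraries (1.73 to 10.5) lie above all WT libraries (-11.5 to 1.48), by 0.25 between the nearest, and on the other 4 components the labels overlap.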

How the data were processed

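RNA sequencing of Renca tumours was used as the authors deposited it, as regularised log2 values (rlog) made over 24 mouse libraries together. Tools listed, per the submitters' processing notes, are TopHat, HTSeq, DESeq2 and FastQC, with GRCm38 and hg38 as builds and no versions. No source here gives annotation, strandedness or depth, so overlapping genes and near-identical copies are uncertain. Libraries were grouped by their labels. Whether each is a separate animal is not stated, so p-values measure only the spread between libraries.

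Of 46078 rows, 15916 averaged 3 rlog units or more and were tested with limma 3.58.1 in R 4.3.3 (4 group means over 24 libraries, empirical Bayes with trend, Benjamini-Hochberg adjustment, threshold 0.05), checked on simulated data. Scores and medians were compared by exact two-sided permutation over samples (smallest possible p 0.000583). Gene names and positions are those of GENCODE vM21 (GRCm38), which matched 99.59% of tested rows. Promoters come from RefSeq (GRCm38.p6). The 34 gene lists and the groups were chosen with earlier results of these data known. Named genes are the 10 with the smallest p in each direction, the H3K36 list, up to 4 of each other list by p and those with separated labels, each library's 3 most distant genes, the 10 most variable, those called in an alternative, and a few chosen after their values were seen. A low-Xist library is one with Ddx3y above 5. The human cell line libraries were not used here.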

Additional observations from a re-analysis of the deposited data

Results flagged for a closer look

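In 160 checks of lists, leading genes, chromosome medians and components within each label, 12 found a library far from the others of its label, where chance flags about 1 in 20. WT untreated replicate 1 accounted for 8 of them. Its interferon-gamma and chemokine list mean was 8.94 (others 7.68 to 7.95), its T cell list mean 5.22 (others 4.73 to 4.85) and its cytotoxic and NK cell list mean 3.77 (others 3.34 to 3.47). Its chromosome medians, as deviations from the gene mean over 13 libraries, were -0.11 on chromosome 6, 0.091 on chromosome 8, -0.073 on chromosome 14, -0.10 on chromosome 16 and -0.090 on chromosome 18.

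WT untreated replicate 4 had a skeletal muscle list mean of 6.35 (others 4.75 to 5.25), and Sorbs2 was at 10.8 in WT untreated replicate 3 (others 10.5 to 10.6). SETD2 KD untreated replicate 6 had an adipocyte list mean of 6.77 (others 5.48 to 5.71) and a component 1 score of -2.45 (others 4.18 to 7.25).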

How the results depend on the processing

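The count of 0 genes was kept in 21 of 28 alternatives. It was 3 with only the 13 untreated libraries (Syngr1, Cd22, Adcy3), 11 with library weights (7 higher, 4 lower), 1 with quantile normalisation, 1 without a variance trend, 1 with the low-Xist state as a covariate and 3 without SETD2 KD VE822 replicate 4, the last 2 chosen after seeing the data, as were leaving out the low-Xist libraries, the adipocyte-high libraries, or chromosomes X and Y. Leaving out 1 untreated library gave 0 to 1, the 1 being Eya4 without SETD2 KD untreated replicate 1 (adjusted p 0.0399). Eya4 was also the gene called with quantile normalisation and without a trend, and with weights Erv3 (0.41), Fn1 and Mucl1 were among the 11. Genes below an unadjusted p of 0.05 numbered 512, against 1481 with only the untreated libraries and 1615 with library weights. The count of components that differed was 0 with the 500 genes of largest variance and 0 to 1 when 1 library was left out, and that of chromosomes 0 to 1. Of 1784 gene values under alternatives, 1759 kept their direction and call, 21 gained a call and 4 reversed. The reversals all belonged to Setd2, which ran from -0.0307 to 0.0056 when 1 library was left out and was at 0.047 with muscle, red blood cell and T cell covariates, 0.0056 without SETD2 KD untreated replicate 3, 0.040 with low-Xist libraries left out and 0.071 with low-Xist state as a covariate. The ratio of distances, the length and biotype classes, the interaction and the VE822 directions (13 to 16 of 20) kept their verdict. Cause was not tested for any of these changes. No paired analysis was possible because the labels of the mouse groups share no replicate number. Depth is unknown, and rlog shrinks the differences of low genes such as Eya4 and Il17re.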

Other observations

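H2-Q10, an MHC class I gene of the Q region, had 2 levels among the 13 tumours. It was at 8.36 to 8.63 in 2 of 7 libraries labelled WT and 4 of 6 labelled SETD2 KD, and at 6.96 to 7.25 in the other 7. Genes of this family are similar in sequence, so reads can be split between them. Gm12033 was at 9.18 in SETD2 KD replicate 6 and at 3.88 to 4.64 in the other 12 libraries, and Eln, the elastin gene, ran from 5.94 to 9.61 with its highest values in WT replicates 1 (9.61) and 3 (9.20) and SETD2 KD replicate 4 (9.26). The matrix gene Lrrc15, a marker of activated fibroblasts, was lowest in WT replicate 6 (6.37) and SETD2 KD replicate 3 (6.66) and at 7.27 to 8.77 elsewhere. Erv3, an endogenous retroviral gene, was at 10.8 to 11.3 with the WT label and 11.3 to 11.7 with the SETD2 KD label, a difference of 0.42 that passed with library weights alone. The histone gene Hist1h1c differed by 0.31 and the chaperone gene Hspa5 by -0.17, neither past the threshold.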
